A study of Mus musculus with 6 samples.

Results

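The data described here are the baseline RNA levels of mouse endothelial cells that received an empty lentiviral vector. The members are the 3 empty-vector libraries of the 6 samples in the series, and 22046 protein-coding genes of the 54532 genes in the count table. The rule takes them by their treatment label and by the gene class given in the deposited table, and sets no threshold on a measured value. The other 3 samples, in which the vector carried RBPMS, an RNA-binding protein, were not compared with them. Levels are CPM, counts scaled to 1000000 counts in the library.

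Each empty-vector library, called control 1, 2 and 3 after its number in the labels, came from endothelial cells kept in a complete mouse endothelial medium containing 10% FBS (foetal bovine serum) and 1% PS, and harvested 72 h after the lentivirus was given. Strain, age, sex, tissue of origin, and whether the cells were a line or a primary isolate were not given in the labels, nor whether the 3 libraries were separate cultures, so their spread may be technical. All 3 carry the transduction itself and no untransduced culture was analysed here. RNA was total RNA from which ribosomal RNA had been removed.

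The libraries held 15779567, 16229564 and 23076124 counts, of which 98.1%, 98.1% and 97.5% fell on protein-coding genes. A gene with 0 counts could still have a level of up to 0.190, 0.185 and 0.130 CPM in controls 1, 2 and 3, the level of 3 counts; these limits cover counting error only. Control 3 stood apart from the other controls. Across 11197 protein-coding genes with a median level of at least 1 CPM, called detected here, the median absolute log2 ratio was 0.09 between controls 1 and 2 and 0.45 between control 3 and the mean of the others. Only 25 detected genes were over 2-fold higher in control 1 than in control 2, and 25 the other way. The values of all 3 libraries are therefore given for each gene on which a result turns, in the order control 1, 2 and 3.

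The label was checked against 5 endothelial markers. Cdh5 (ENSMUSG00000031871, GRCm38 chromosome 8, 104101625 to 104144511), which encodes the adherens junction protein VE-cadherin, had 2406, 2447 and 1339 CPM. Vwf (ENSMUSG00000001930, chromosome 6, 125546774 to 125686679), the clotting glycoprotein stored in endothelial granules, had 7808, 7812 and 3632 CPM. Kdr (ENSMUSG00000062960, chromosome 5, 75932827 to 75978458), the main signalling receptor for VEGF, had 2709, 2761 and 1664 CPM.
All of these were far above the 1 CPM threshold in every library, and each was lowest in control 3. Stab1 (ENSMUSG00000042286, chromosome 14, 31139013 to 31168641), a scavenger receptor, had 1343, 1382 and 591 CPM. Ephb4 (ENSMUSG00000029710, chromosome 5, 137350109 to 137378669), the receptor tyrosine kinase that marks veins, had 1272, 1341 and 995 CPM. Rbpms itself was present at baseline, at 57.5, 56.7 and 54.3 CPM, with the libraries close together.

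Endothelial cells line all vessels, and their identity is maintained by transcription factors of the ETS, SOX and GATA families, whose ETS members bind DNA through a GGAA core. On that shared base, arteries, veins, lymphatics and the capillaries of each organ have their own sets of transcription factors, receptors and secreted proteins. Once in culture, endothelial cells are known to lose part of this organ-specific program while they divide and secrete basement membrane.

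Because the given markers were abundant and the ETS factors described further on were among the most abundant transcription factors, the 150 bases before the RefSeq start (GRCm38.p6) of 3 of those markers are shown, 5′ to 3′ on the gene's strand, with each GGAA or its reverse complement TTCC in capitals. Cdh5 and Vwf had no entry.
Kdr, chr5:75978456-75978605, minus strand: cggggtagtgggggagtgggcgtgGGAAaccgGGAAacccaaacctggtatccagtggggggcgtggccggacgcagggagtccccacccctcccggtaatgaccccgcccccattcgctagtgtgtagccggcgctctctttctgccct
Stab1, chr14:31168642-31168791, minus strand: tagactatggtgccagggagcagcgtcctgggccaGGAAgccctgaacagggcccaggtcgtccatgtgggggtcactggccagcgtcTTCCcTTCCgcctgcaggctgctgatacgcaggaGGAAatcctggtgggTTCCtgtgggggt
Ephb4, chr5:137349959-137350108, plus strand: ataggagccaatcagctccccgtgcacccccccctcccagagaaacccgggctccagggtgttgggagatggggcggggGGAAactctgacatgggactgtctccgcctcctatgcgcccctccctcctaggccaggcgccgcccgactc
The core occurred 2 times before Kdr, 5 times before Stab1 and once before Ephb4. It is a short motif: 80.8% of all 32851 RefSeq promoter windows of the same length held at least 1 copy, with a mean of 1.74. The 34 windows of 28 pan-endothelial genes that matched by symbol, of 48 listed, had a mean of 2.62 copies, and 31 of them held at least 1. These are matches of letters and say nothing of binding.

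The baseline transcriptome was broad and not dominated by a few genes. Of the 22046 protein-coding genes 50.8% were detected. Of all 22046, 7061 had no count in any of the 3 libraries, 8958 reached a median of 10 CPM, 2350 reached 100 CPM and 76 reached 1000 CPM. The 100 genes of highest median level held 18.5%, 18.8% and 18.1% of the protein-coding counts in controls 1, 2 and 3, and the 10 highest held 5.73%, 5.86% and 5.74%.

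**Figure D1:**
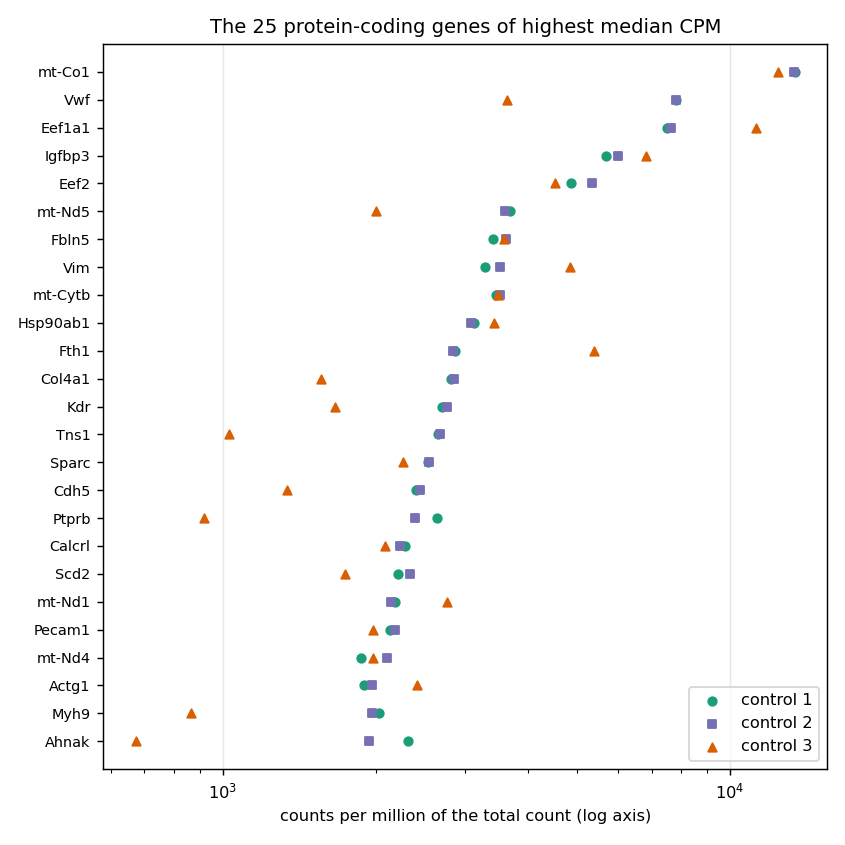
Level of the 25 protein-coding genes of highest median CPM in control 1 (circles), control 2 (squares) and control 3 (triangles), on a log axis of CPM. Controls 1 and 2 nearly coincide, while control 3 is displaced to the left for Vwf (7808, 7812 and 3632 CPM) and to the right for Eef1a1 (7512, 7636 and 11239 CPM).

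By CPM, the most abundant transcript was mt-Co1, a mitochondrially encoded subunit of cytochrome c oxidase, at 13399, 13367 and 12435 CPM. Vwf came next, followed by the translation elongation factor Eef1a1. Igfbp3, a secreted binding protein for insulin-like growth factors, had 5705, 6009 and 6818 CPM, and Eef2, the translocation factor of the ribosome, had 4847, 5341 and 4511 CPM.
Endothelial and matrix genes made up much of the rest of the 25. Fbln5, a fibulin that organises elastic fibres, had 3403, 3616 and 3577 CPM, among the steadiest of the group. Col4a1, a chain of basement membrane collagen, had 2814, 2859 and 1562 CPM, and the matricellular protein gene Sparc had 2539, 2554 and 2266 CPM. Ptprb, the endothelial phosphatase VE-PTP, had 2637, 2389 and 916 CPM. Calcrl, the receptor subunit for adrenomedullin, had 2286, 2232 and 2089 CPM, and the junctional adhesion gene Pecam1 had 2131, 2187 and 1980 CPM. The long cytoskeletal genes Tns1, Myh9 and Ahnak were also in the 25, and Ahnak, a scaffold protein, had 2315, 1939 and 674 CPM.

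Long genes collect more counts per molecule, so order between genes was read from CPM per kilobase of the deposited gene length, which for 53411 of the 54495 genes found in GENCODE M21 equals the union of the annotated exons. On that scale mt-Co1 was still highest, with a median of 8652 CPM per kilobase. Fth1, the iron-storage ferritin heavy chain, was next at 3307, and Eef1a1 followed at 3063. Igfbp3, at 1920 CPM per kilobase, was the highest of the secreted protein genes, whereas Vwf moved from rank 2 by CPM to rank 37 at 486 CPM per kilobase.
Cldn5, a tight junction protein, stood at rank 13 at 1209 CPM per kilobase, ahead of Ly6a (Sca-1) at 1091 and of the interferon-induced Ifitm3 at 1023. Ms4a6d, a membrane protein better known from macrophages, stood at rank 20 with 748 CPM per kilobase. Of the 25 genes highest by CPM, 21 were within the first 100 per kilobase, and 20 when the longest coding transcript in GENCODE M21 was used as the length. The order depended on that choice: by coding transcript Eef1a1 was at rank 2 with 4257 CPM per kilobase and Fth1 at rank 8 with 1917.

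The pan-endothelial genes were nearly all present, beside 50.8% of all protein-coding genes. Of 48 listed, 47 were detected and 39 reached 100 CPM; the median member had 346 CPM, against 36.3 CPM for all detected protein-coding genes. Their summed level was 36991, 37491 and 28845 CPM, lower in control 3. Tie1, an orphan receptor that modulates angiopoietin signalling, had 1684, 1843 and 1685 CPM. Cldn5 had 1557, 1711 and 3207 CPM, so here control 3 was the highest library. Nos3, the endothelial nitric oxide synthase, had 919, 989 and 775 CPM. Cyyr1 was the 1 listed gene with 0 counts in all 3 libraries.

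**Figure D2:**
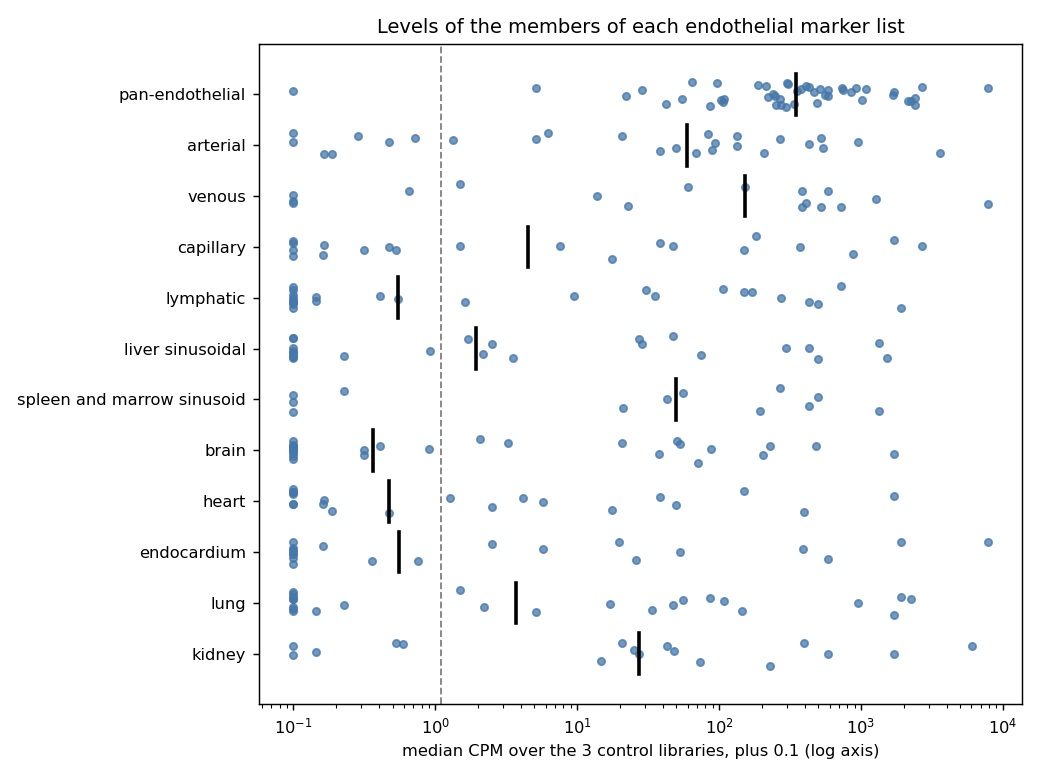
Each point is 1 listed gene, placed by its median CPM over the 3 control libraries plus 0.1 on a log axis; the black bar is the median of the list and the dashed line is 1 CPM. The pan-endothelial list has its median at 346 CPM, whereas the lymphatic, brain, heart and endocardium lists have medians below 1 CPM, with some members at 0 and others above 100 CPM.

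Transcription factors were described from a list of 249 genes. Of these 205 were detected, beside 50.8% of all protein-coding genes, and 75 reached 100 CPM. Highest by CPM was Ctnnb1, the junctional protein and Wnt co-activator beta-catenin, at 1462, 1439 and 1360 CPM. The ETS factor Ets2 had 867, 908 and 777 CPM, and the RNA- and DNA-binding protein gene Ybx1 had 711, 704 and 796 CPM. These 3 genes varied little between libraries.
Nr2f2, the orphan nuclear receptor COUP-TFII that specifies veins, had 530, 526 and 491 CPM. Epas1, the hypoxia factor HIF-2alpha, had 537, 525 and 291 CPM and was lowest in control 3. The repressor gene Bcl6b had 396, 393 and 355 CPM, and the forkhead gene Foxp1 403, 393 and 270 CPM. Klf2, a factor induced by laminar flow, had 319, 350 and 523 CPM and was highest in control 3. The SOX family member Sox18 had 255, 304 and 342 CPM, and Sox17, outside the 15 highest, 252, 268 and 321 CPM. Nfe2l1 and Nfe2l2, bZIP factors of the stress response, Mxd4, a MAX partner, Elk3, Ybx3 and Hif1a completed the 15 highest.

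The deposited table also assigns families to 1451 protein-coding transcription factor genes. Of these, 836 were detected, beside 50.8% of all protein-coding genes, and 122 reached 100 CPM. The ETS family had 17 of 26 genes detected, and 6 of them reached 100 CPM. Beside Ets2 these were Elk3 at 461, 471 and 502 CPM, Ets1 at 252, 261 and 179 CPM, Fli1 at 238, 238 and 193 CPM, Erg at 222, 227 and 171 CPM, and Elk4 at 134, 119 and 111 CPM. Fli1 and Erg, which maintain endothelial identity, were close to each other per length, with medians of 68.2 and 64.0 CPM per kilobase. Only 47 of 229 homeobox genes, 17 of 44 forkhead genes and 2 of 17 T-box genes were detected. In the zinc finger class zf-C2H2 it was 391 of 565, and in the bZIP class 40 of 48.

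Artery and vein genes were both present. Of all 22046 protein-coding genes 50.8% were detected and 2350 reached 100 CPM, which stands beside the counts of both lists. Of the 26 arterial genes 19 were detected and 9 reached 100 CPM, with a summed level of 7081, 7397 and 6268 CPM; of the 17 venous genes it was 13 and 9, summing to 12384, 12408 and 7332 CPM. The largest part of the venous sum is Vwf, which also stands in the pan-endothelial list. Beside Nr2f2 and Ephb4, the venous semaphorin receptor gene Nrp2 had 730, 717 and 327 CPM and Selp, the leukocyte-capturing P-selectin, had 152, 154 and 96.0 CPM. The venule marker Ackr1 had 1 count, in control 3, and Slc38a5 had 0 in all libraries.
Among arterial genes, Fbln5, Acvrl1 (the BMP receptor ALK1; 956, 1014 and 891 CPM) and Notch4 (539, 563 and 422 CPM) were highest by CPM. Arterial ligands were lower: Efnb2, the partner of Ephb4, had 134, 148 and 102 CPM, and the Notch ligand Dll4 had 86.1, 89.2 and 90.9 CPM. The gap junction gene Gja5, a marker of large arteries, had 49.7, 61.9 and 44.4 CPM. Hey1, a Notch target, had 0, 2 and 2 counts, and Cxcr4 and Stmn2 had 0 counts. No venous or arterial identity is assigned from these levels.

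Of 20 capillary genes 11 were detected. Aqp1, the water channel, had 1712, 2101 and 1431 CPM and Gpihbp1, which carries lipoprotein lipase to the vessel wall, had 127, 150 and 236 CPM. In contrast the fatty-acid handling genes Cd36, Fabp4 and Lpl stayed below 1 CPM in every library, and Car4, a marker of lung capillaries, had 0 counts in all 3.

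Lymphatic genes gave a mixed picture, with 12 of 25 detected and 7 at 0 counts. Prox1, the master regulator of lymphatic fate, Pdpn, Ccl21a and Mmrn1 had 0 counts in all libraries. Yet other genes of the list were detected, some of them abundant. Lyve1, a hyaluronan receptor also listed for sinusoidal vessels, had 483, 432 and 354 CPM. Flt4, the receptor for VEGF-C, had 272, 290 and 112 CPM. Foxc2, a valve regulator, had 33.5, 41.0 and 35.1 CPM.

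Liver sinusoidal genes split in the same way, with 13 of 24 detected and 7 at 0. Stab1, Lyve1 and Stab2, a hyaluronan clearance receptor with 498, 516 and 218 CPM, were high. Thbd, the anticoagulant thrombomodulin, had 1533, 1551 and 1284 CPM. F8, which encodes coagulation factor VIII, had 77.6, 74.1 and 36.4 CPM. Clec4g, Dnase1l3, Fcgr2b, Cd209b, Wnt2, Rspo3 and Maf had 0 counts in all 3, and Gata4, the regulator of liver sinusoidal identity, had 2.66, 2.34 and 2.43 CPM.
For the spleen and marrow sinusoid list 8 of 12 genes were detected. Nkx2-3, a homeobox factor needed in the spleen and gut, had 21.2, 21.01 and 14.8 CPM. Its list-mates Madcam1, a homing receptor for lymphocytes, and Bst1 had 31.1, 43.0 and 49.0 CPM and 183, 193 and 266 CPM. Cd8a and Dnase1l3 were at 0.

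The counts of detected genes in the lists of capillary, lymphatic, sinusoidal and organ genes stand beside 50.8% of all protein-coding genes, and several lie near that share, so the named genes carry the description. In the brain list 12 of 28 genes were detected, led by Cldn5, the glycoprotein gene Bsg and the Wnt7 co-receptor Adgra2 (227, 239 and 97.5 CPM). Slc2a1, the blood-brain barrier glucose carrier, had 196, 203 and 216 CPM. The barrier transporters Slco1a4, Slco1c1 and Slc22a8 and the factors Foxf2 and Foxq1 had 0 counts in all 3 libraries.
In the heart list 10 of 21 were detected; Tcf15, a factor of heart capillaries, had 4.75, 5.67 and 8.41 CPM, and Meox2, Tbx20, Gata6 and Fbln1 had 0 counts. The endocardium list had 9 of 20 detected, with Nfatc1, a valve regulator, at 53.5, 52.6 and 32.2 CPM and with Gata5, Bmp10, Tbx20, Hapln1, Fgf10 and Smoc1 at 0.

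Lung and kidney lists had 14 of 24 and 12 of 17 genes detected. Foxf1, the forkhead factor of lung and visceral vessels, had 146, 155 and 113 CPM, and Ednrb, the endothelin B receptor of lung capillaries and other beds, had 1925, 2000 and 1658 CPM. The lung genes Hpgd, Car4, Scn7a, Tbx3, Fibin and Nckap5 had 0 counts. In the kidney list Igfbp3, Aqp1, Plvap and Fbln2 were highest, while Gata5 and Tbx3, factors of glomerular vessels, were at 0.

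Across the 50 transcription factors that distinguish vessel beds, 20 were detected, beside 50.8% of all protein-coding genes, and 21 had 0 counts in all 3 libraries. After Nr2f2 and Sox17 came the LIM homeobox gene Lhx6 at 197, 212 and 128 CPM, Gata2 at 149, 153 and 142 CPM, Foxf1, and Lmo2 at 127, 143 and 178 CPM. The limb and heart factors Tbx5, Nkx2-5, Isl1, Hand2 and Tbx4 were among those at 0. No detected gene of this list was past 2-fold in control 3 by CPM. Among all detected genes 2.38% were higher and 7.11% lower, and 20 genes are too few to set the list apart.

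**Figure D3:**
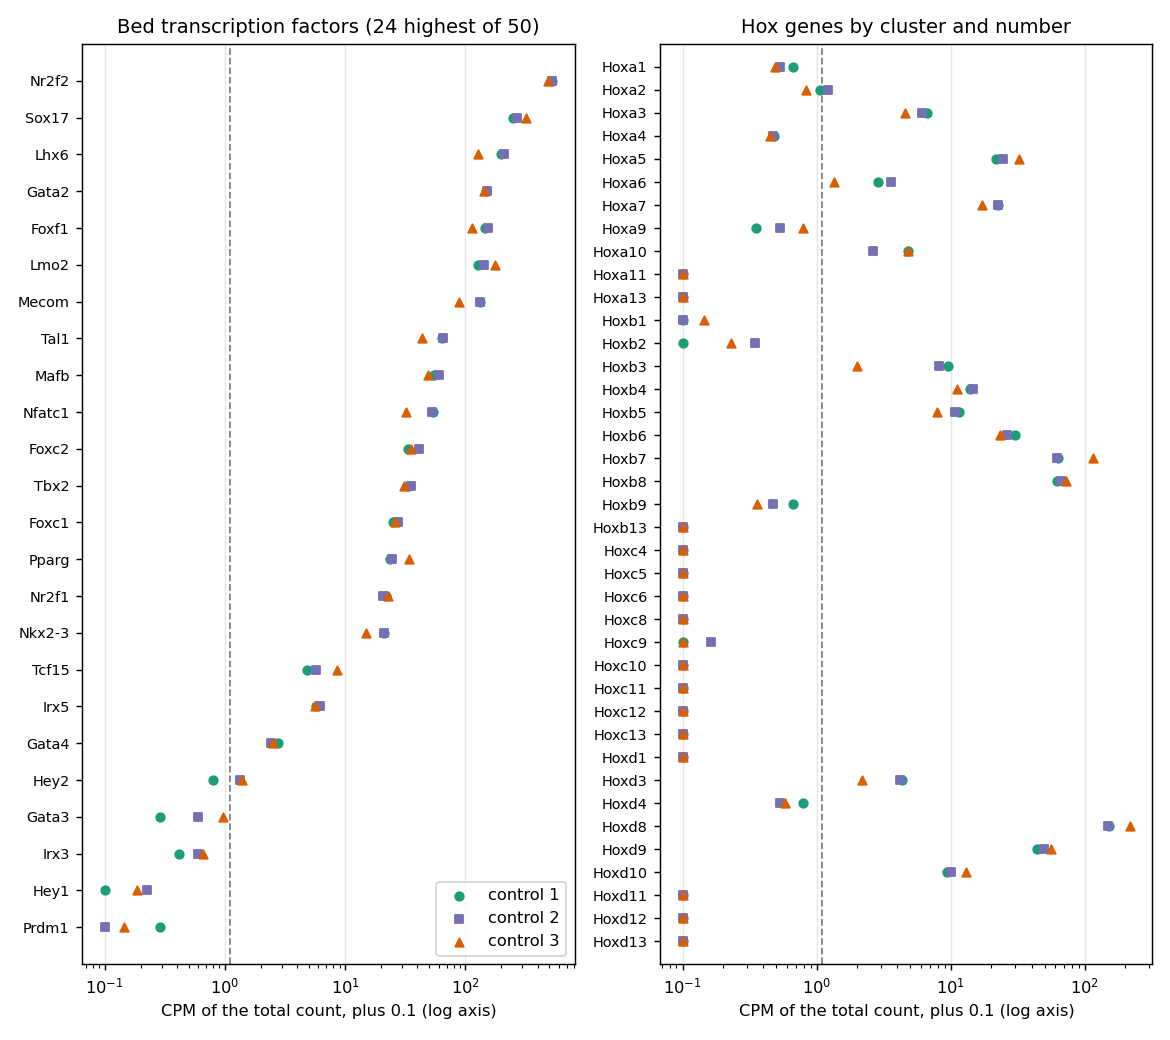
Left, the 24 highest of 50 bed transcription factors; right, the 39 Hox genes by cluster and number; each symbol is 1 control library, placed by CPM plus 0.1 on a log axis, and the dashed line is 1 CPM. Nr2f2 leads the left panel at 530, 526 and 491 CPM, and in the right panel the C cluster sits at or near 0 while Hoxd8 reaches 151, 148 and 217 CPM.

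Hox genes, which record position along the body axis, were detected only between number 3 and number 10 of their clusters. Within that span Hoxa4, Hoxa9, Hoxb9, Hoxd4 and the genes of the C cluster were not detected. Of 39 genes 15 were detected, beside 50.8% of all protein-coding genes. Hoxd8 was highest by CPM at 151, 148 and 217 CPM, and Hoxb8 and Hoxb7 had 61.3, 65.7 and 72.4 CPM and 62.5, 61.7 and 114 CPM. Per length, the medians of Hoxd8, Hoxb7, Hoxb8 and Hoxd9 were 54.9, 40.5, 24.9 and 23.0 CPM per kilobase.
By cluster, 5 of 11 genes were detected in A, 6 of 10 in B, 0 of 9 in C and 4 of 9 in D. The summed levels were 60.2, 61.4 and 61.8 CPM for A, 189, 188 and 231 CPM for B, and 209, 212 and 288 CPM for D. The whole C cluster held 1 count in the 3 libraries. Hoxa13, Hoxb13, Hoxc13 and Hoxd13, which mark distal limbs and the hind end of the trunk, had 0 counts in all 3, as did Hoxd11 and Hoxd12.

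Of 328 secreted and matrix genes 171 were detected, a share near the 50.8% of all protein-coding genes; 70 reached 100 CPM and 48 had 0 counts in all libraries. Summed levels were 55340, 56658 and 48398 CPM. After Vwf, Igfbp3, Fbln5, Col4a1 and Sparc came C3, the central complement component, at 1727, 1832 and 956 CPM. Col4a2, the partner chain of Col4a1, had 1659, 1699 and 849 CPM. The protease gene Adamts1 had 1635, 1682 and 1128 CPM.
Laminin and nidogen genes of the basement membrane were present too, with Lama5 at 1173, 1185 and 350 CPM, Lamc1 at 579, 570 and 182 CPM and Nid1 at 886, 795 and 332 CPM. In all 3 of these genes control 3 was lower than each other control by over 2-fold. Lcn2, an iron-sequestering acute-phase protein, had 971, 1057 and 1672 CPM, and the metalloproteinase inhibitor Timp3 had 1027, 1034 and 334 CPM. The lysosomal genes Psap and Ctsd were also within the 15. Genes of fibrillar and provisional matrix differed among themselves: Fn1 (fibronectin) had 479, 423 and 122 CPM, whereas Col3a1, Lum and Lox had 0 counts in all 3.

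Of 279 receptors and adhesion molecules 215 were detected, beside 50.8% of all protein-coding genes, with 107 at 100 CPM or more. Summed levels were 65545, 66712 and 55150 CPM. Beside those already given, Jam2, a junctional adhesion molecule, had 1856, 1857 and 1394 CPM. Ly6e and Ly6a, lipid-anchored surface proteins, had 1357, 1493 and 2159 CPM and 1208, 1315 and 2324 CPM, both highest in control 3. The integrin genes Itgb1 and Itgb3 had 1330, 1273 and 1300 CPM and 1110, 1136 and 736 CPM; Itgb1 was among the steadiest receptors. The stretch-gated channel gene Piezo1 had 647, 664 and 110 CPM. Cxcr4, S1pr3, Ednra, Agtr1a and Fgfr2 had 0 counts in all 3.

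To see which signals the cultures could send and receive, 26 textbook pairs of ligand and receptor were set side by side in CPM per kilobase; these pairs were chosen after levels had been seen. Kdr had 300, 306 and 184 CPM per kilobase, and its ligand Vegfa 6.68, 6.59 and 6.17. Ednrb had 451, 469 and 389, while Edn1, endothelin-1, had only 0.356, 0.288 and 0.284. Tek, the angiopoietin receptor, had 52.4, 54.1 and 46.4, with Angpt1 at 0 counts in all libraries and Angpt2, a ligand of cultured and sprouting endothelium, at 0.240, 0.417 and 0.270.
In these 3 pairs the receptor exceeded the ligand in every library. Other pairs were the other way round. Apln, the sprouting-front peptide apelin, had 107, 91.9 and 87.2 CPM per kilobase and its receptor Aplnr 0.411, 0.316 and 0.375. Kitl (stem cell factor) had 87.7, 86.0 and 89.5 and its receptor Kit 5.28, 6.13 and 4.19. Csf1 had 23.6, 22.6 and 17.2 and Csf1r, the macrophage receptor, held 1 count in the 3 libraries. For Tgfb1 and Tgfbr2, with 77.0, 81.4 and 86.2 against 67.6, 71.0 and 49.1 CPM per kilobase, both sides were present at similar levels.

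**Figure D4:**
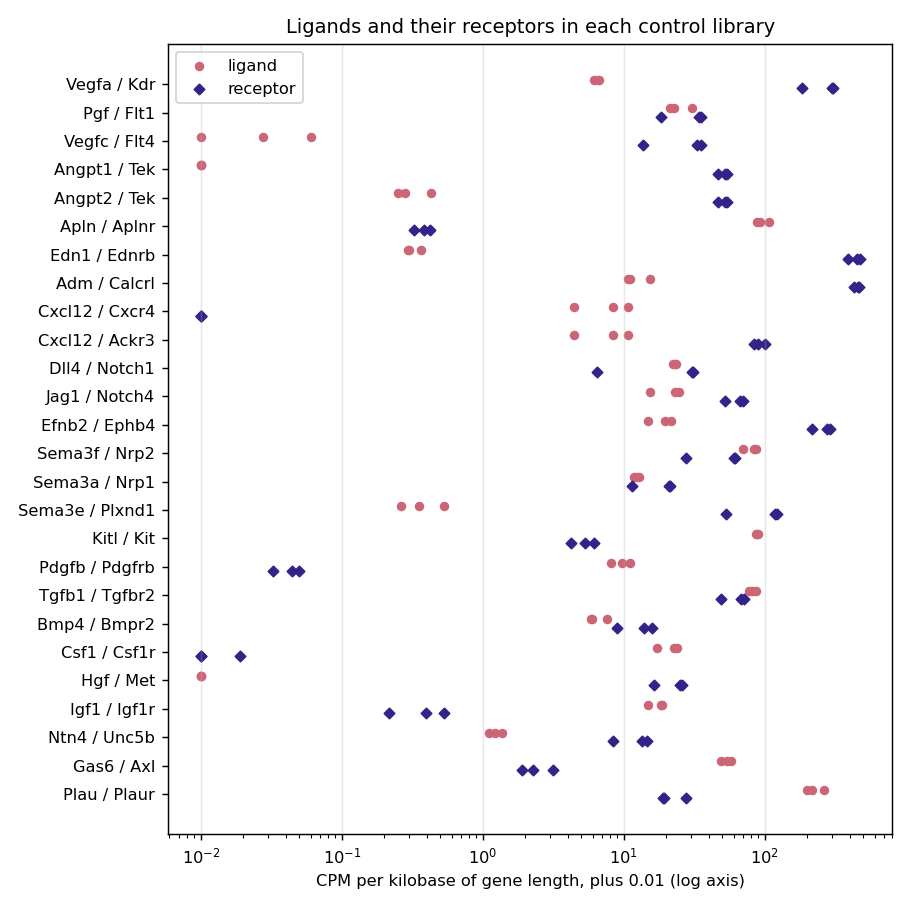
CPM per kilobase of gene length, plus 0.01, of ligands (circles) and receptors (diamonds) for 26 pairs, with 1 symbol per control library on a log axis. The receptor lies far to the right of the ligand for Edn1 and Ednrb (0.288 against 451 CPM per kilobase in the median library of each), and the order is the opposite for Apln and Aplnr (91.9 against 0.375).

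Notch, ephrin and chemokine pairs completed the picture. Notch1 had 30.9, 30.4 and 6.44 CPM per kilobase and Dll4 22.3, 23.1 and 23.6, so the receptor was above the ligand in controls 1 and 2 and below it in control 3. Notch1 has 14232 bases, and genes over 10000 bases had a median log2 ratio of -0.75 in control 3 to the mean of the others. The part of gene length in this change of order was not tested. Ephb4 had 274, 289 and 214 and Efnb2 19.5, 21.5 and 14.9. Cxcl12 had 10.7, 8.37 and 4.40 with the signalling receptor Cxcr4 at 0 and the scavenging receptor Ackr3 at 84.1, 89.3 and 100.2. Plau, the plasminogen activator urokinase, had 215, 200.3 and 263 CPM per kilobase and its receptor Plaur 18.8, 19.1 and 27.6.

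Genes of the cell cycle were present throughout, beside 50.8% of all protein-coding genes detected. All 26 genes of G2/M and mitosis and all 27 genes of S phase were detected, with median members at 35.6 and 30.6 CPM and summed levels of 1277, 1118 and 1088 CPM and 1159, 1044 and 1182 CPM. Top2a, the topoisomerase of dividing cells, had 179, 158 and 123 CPM, Mki67 had 182, 157 and 64.3 CPM, and the replication clamp Pcna had 75.7, 71.0 and 113 CPM.
Arrest genes were also present, with 17 of 19 detected, beside 50.8% of all protein-coding genes. The inhibitor Cdkn1a (p21) had 259, 255 and 242 CPM, and Cdkn2a, whose rise marks senescence, had 14.7, 13.2 and 27.8 CPM. In bulk RNA, how many cells express a gene and how much RNA each holds cannot be told apart. Clustered histone genes were low, with 7 of 67 detected and only Hist1h1c above 10 CPM, at 31.2, 34.6 and 57.3 CPM. Most of their messages lack a poly(A) tail, but the labels give removal of ribosomal RNA rather than selection by that tail. Why these genes were low was not tested.

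Of 22 genes tied to flow and vessel tone 20 were detected and 15 reached 100 CPM. Of all 22046 protein-coding genes 50.8% were detected and 2350 reached 100 CPM, which also stands beside the immediate early and tip cell counts. Nos3, Thbd, Ednrb, Klf2 and Cav1 (caveolin, 871, 857 and 1003 CPM) were high, and Edn1 at 0.760, 0.616 and 0.607 CPM was not detected by the 1 CPM rule. Of the immediate early genes 20 of 21 were detected, led by Ier5 at 216, 240 and 354 CPM, but Fos had 5.20, 6.10 and 6.28 CPM and Egr1 had 16.6, 16.2 and 14.0 CPM. Of the tip cell and angiogenic genes 21 of 28 were detected; Apln had 337, 289 and 275 CPM and Dll4 was present, whereas Esm1, Nid2 and Cxcr4, all known from sprouting fronts, had 0 counts.

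Inflammatory genes were uneven. Of 31 listed 23 were detected, beside 50.8% of all protein-coding genes, and 8 reached 100 CPM. C3 and Lcn2 were the highest, far above the cytokine-induced adhesion molecules: Vcam1 had 23.8, 19.5 and 22.6 CPM, Sele (E-selectin) had 15.8, 8.87 and 7.80 CPM, and Icam1 had 0.380, 0.308 and 0.260 CPM, from 6, 5 and 6 counts. Its constitutive relative Icam2 had 284, 294 and 442 CPM. Tnf and Il1b had 0 counts.
Interferon-response genes were mostly present, 33 of 37, beside 50.8% of all protein-coding genes, with a median member at 29.5 CPM. H2-D1, a class I histocompatibility molecule, had 665, 729 and 933 CPM, and Bst2 (tetherin) had 220, 246 and 391 CPM. Isg15 had 15.1, 18.7 and 28.2 CPM. No untransduced culture was analysed here, so the part of the lentivirus in these levels was not tested.

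Markers of mesenchymal transition were uneven. Of 30 listed, 16 were detected, a share near the 50.8% of all protein-coding genes. A median of 10 CPM was reached by 15 and 100 CPM by 6, and 7 had 0 counts in all libraries. The intermediate filament gene Vim, which endothelial cells also express, had 3288, 3520 and 4839 CPM, and Snai1, a transition factor, had 37.6, 36.8 and 35.1 CPM. Fn1, Tgfb1, Tgfbr2, the integrin gene Itgav and the tropomyosin gene Tpm1 (115, 109 and 159 CPM) were the others above 100 CPM, and the actin-binding gene Cald1, which is not in the list, had 1466, 1457 and 1113 CPM. Other contractile and fibroblast genes of the list were at or near 0: Acta2 had 1, 0 and 1 counts, Tagln stayed below 1 CPM, and Tpm2, Myl9, Col3a1, Twist1 and Twist2 had 0 counts. In the hypoxia and glycolysis list 29 of 31 genes were detected; Pkm, pyruvate kinase, had 1056, 1033 and 1217 CPM and Aldoa, aldolase, 969, 999.7 and 1505 CPM. Gapdh had only 32.7, 90.4 and 8.80 CPM; this gene has many near-identical copies in the mouse genome, so its value is uncertain.

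Most markers of other cell types were close to 0. Of 16 fibroblast markers 2 were detected, Pi16 at 36.2, 45.2 and 42.8 CPM, which is also in the kidney list, and Pdgfra at 6.84, 5.55 and 4.42 CPM. Members at 0 counts included Dpt, Lum, Col3a1 and Tcf21, and the list summed to 44.7, 52.0 and 48.1 CPM. Of 16 mural cell markers only Mcam was detected, at 420, 418 and 369 CPM, a gene that endothelial cells also express, and Rgs5, Kcnj8, Des and Actg2 had 0 counts. Of 18 leukocyte markers 3 were detected, with Cd68, a lysosomal glycoprotein, at 41.7, 46.4 and 41.0 CPM, and Adgre1, Cd3e, Tyrobp and Laptm5 at 0; the pan-leukocyte gene Ptprc held 1 count.
Epithelial markers summed to 2.09, 1.79 and 4.07 CPM, hepatocyte markers to 3.30, 3.70 and 2.47 CPM and cardiomyocyte markers to 1.90, 2.83 and 4.38 CPM, with Epcam, Cdh1, Alb and Myh7 at 0. Mesothelial markers summed to 29.5, 24.6 and 26.7 CPM, mostly from Msln at 24.7, 20.02 and 21.97 CPM, while Upk1b, Krt18 and Muc16 had 0 counts. Erythroid and platelet markers summed to 29.5, 27.8 and 48.6 CPM; the platelet genes Itga2b and Pf4 had 10.1, 13.2 and 19.8 CPM and 12.2, 8.38 and 20.8 CPM, with Hbb-bs and Hbb-bt, the adult beta-globin genes, at 0. The part of other cell types in the endothelial levels was not tested.

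Control 3 was over 2-fold higher than each other control at 267 of 11197 detected protein-coding genes (2.38%) and over 2-fold lower at 796 (7.11%). With 1 library on one side there is no replicate check and no test. Nearness to the threshold was read only among genes with a median of at least 10 CPM. Rps23 was just inside, at 2.002-fold higher than the nearer control, and Cox5a just outside at 1.999-fold. On the lower side Nfrkb was just inside and Stard13, at 1.998-fold, just outside.

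Genes for the proteins of the cytosolic ribosome were often higher in control 3. Of 82 listed, 81 were detected, 47 were over 2-fold higher (58.0% of those detected, against 2.38% of all detected genes) and 0 were lower, and their summed level was 31936, 32966 and 66590 CPM. Rpl41 had 580, 613 and 1509 CPM and Rps27a, made as a fusion with ubiquitin, had 220, 277 and 785 CPM. The ribosomal gene copy Rps27rt had the highest ratio among genes of at least 10 CPM, with 30.8, 19.5 and 198.6 CPM, but it is a near copy of Rps27 and its counts are uncertain, as are those of Gm2000, Rpl21, Rpl30 and Rpl7a, which have many processed copies.
Outside the ribosome, the splicing subunit gene Snrpe had 26.8, 35.5 and 92.3 CPM, the complex I gene Ndufa12 had 7.16, 10.4 and 23.9 CPM, and Polr2i, an RNA polymerase II subunit, had 13.4, 14.7 and 35.6 CPM. Of the listed secreted protein genes, by CPM, only Mif, a cytokine, and Ctla2a, a protease inhibitor, were higher, at 160, 168 and 347 CPM and 164, 155 and 338 CPM. By CPM 0 of 205 detected transcription factors and 0 of 215 receptors on the lists were past 2-fold higher, against 2.38% of all detected genes. With TMM factors, a scale set out further on, 1 receptor was, as were 5 secreted protein genes.

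On the lower side were many large proteins. The lowest ratio among genes of at least 10 CPM belonged to Srcap, a chromatin remodelling ATPase, with 10.4, 11.3 and 0.910 CPM, and then to the zinc finger gene Zfp871 with 60.2, 57.6 and 5.07 CPM. Hipk2, a nuclear kinase, had 61.6, 56.4 and 7.11 CPM and Med12, a Mediator subunit, had 107, 104 and 16.1 CPM. Among listed genes, 31 of 215 detected receptors (14.4%), 18 of 171 secreted protein genes (10.5%), 15 of 205 transcription factors (7.32%) and 6 of 47 pan-endothelial genes (12.8%) were lower, against 7.11% of all detected genes. These shares were not matched for gene length. Median lengths were 5400, 4201, 5201 and 4379 bases in the same order, and 4504 bases for all detected genes. The 47 pan-endothelial genes are too few to set that list apart.
The receptors included Piezo1, the polycystin gene Pkd1 (572, 588 and 139 CPM), Notch1 (439, 432 and 91.7 CPM) and the semaphorin receptor Plxnd1 (863, 890 and 386 CPM). Matrix genes included Hspg2, the basement membrane proteoglycan perlecan, at 755, 686 and 146 CPM, a log2 ratio of -2.31 to the mean of the other controls, and Fn1 at -1.88. Vwf, Ptprb, Adgrf5, Cd93, Shank3 and Flt4 were the 6 pan-endothelial genes; of the given markers, Stab1 also lay past 2-fold, whereas Cdh5, Kdr and Ephb4 did not.

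**Figure D5:**
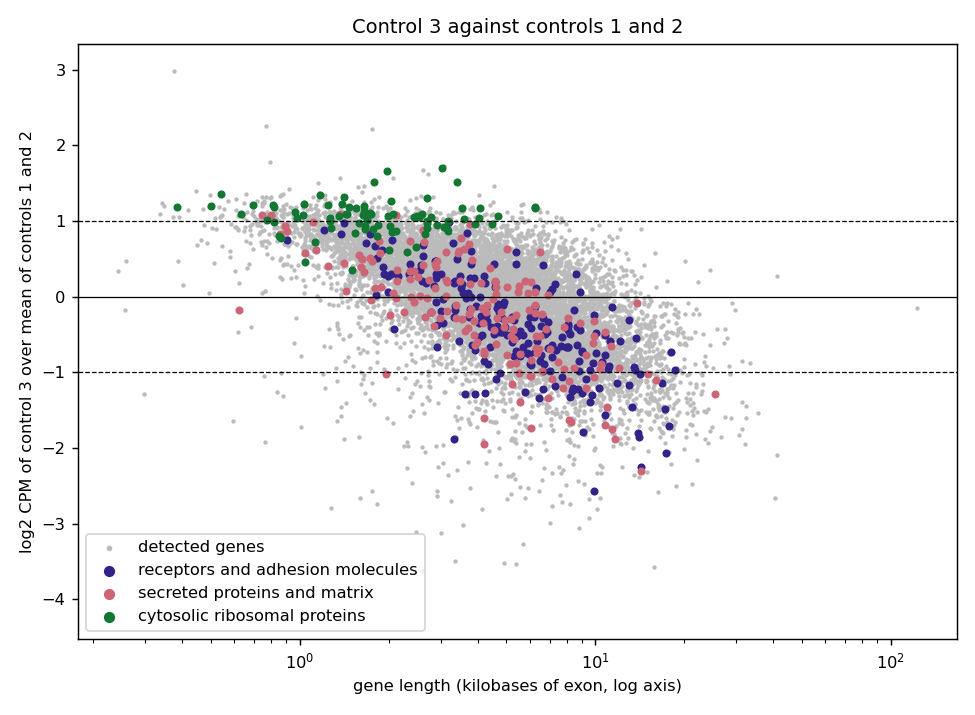
Log2 ratio of the CPM in control 3 to the mean of controls 1 and 2 (vertical axis) against gene length in kilobases (horizontal log axis) for detected protein-coding genes, with the ribosomal, secreted and receptor lists in colour; dashed lines mark 2-fold. Genes up to 1000 bases have a median ratio of 0.94 and genes over 10000 bases one of -0.75.

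The ratio followed gene length. Over the 11197 detected genes Spearman's rho between the log2 ratio and length was -0.63, a description across genes, which share the libraries and are not replicates. Median log2 ratios ran from 0.94 for 234 genes up to 1000 bases, through 0.24 for genes of 2000 to 4000 bases, to -0.75 for 1101 genes over 10000 bases, and 29.2% of the last group were over 2-fold lower, with 0 higher.
Within one range of deposited gene length the groups still differed, least among the shortest genes. Up to 1000 bases 13 ribosomal protein genes had a median of 1.12 and the other 221 genes 0.94. From 1000 to 2000 bases it was 1.08 for 34 genes against 0.66 for 1114, and from 2000 to 4000 bases 0.99 for 28 against 0.24 for 3371. The deposited length can far exceed the longest coding transcript, as for Rps18 (2491 against 560 bases) and Rpl13 (2595 against 780). Whether the ribosomal difference holds at equal transcript length was not tested. Over 8000 bases, the medians were -0.99 for 26 secreted protein genes, -0.92 for 58 receptors and -0.62 for the 1945 remaining genes. This range has no upper limit, and whether these groups differ at equal length or GC content was not tested. GC content showed little by itself, with a rho of 0.01 over 11169 genes, but among genes over 8000 bases the median log2 ratio was -0.48 in the lowest tercile of GC, -0.76 in the middle and -0.91 in the highest. What set control 3 apart was not tested, and depth, at 23076124 counts against 15779567 and 16229564, moved with it.

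Another scale moves the log2 ratio of every gene by nearly the same amount, so it changes the split into higher and lower but cannot change the differences between groups. With TMM factors from edgeR on the same detected genes, 363 were higher and 681 lower (34.8% of both being higher, against 25.1% with CPM), and with DESeq2 size factors 328 and 712. The median log2 ratio of all detected genes, -0.02 by CPM, was 0.05 with TMM factors and 0.02 with DESeq2 size factors. When counts were divided by gene length and rescaled to a common total (a TPM form), the median log2 ratio of all detected genes moved to -0.40; on that scale the medians were 0.68 for ribosomal protein genes, -0.58 for secreted protein genes and -0.79 for receptors, the median for genes of 2000 to 4000 bases changed sign, from 0.24 to -0.14, and 10 genes were higher and 1892 lower.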

How the data were processed

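RNA from the 3 empty-vector samples was measured by sequencing after removal of ribosomal RNA, per the labels' protocols. The authors deposited gene counts as whole numbers; FastQC, Salmon and mm10 are named per the submitters' processing notes. Their versions, how counts were made and whether strand was used were not found in the sources at hand, so reads of overlapping, antisense and near-identical genes may be assigned wrongly. Groups came from the sample titles, and columns were matched by name.

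Counts were divided by each library's total (15779567 to 23076124 counts) to give CPM. At 1 CPM a gene has 15.8 to 23.1 counts. A gene was called detected at a median of at least 1 CPM, and was called different in control 3 when over 2-fold from each other control. No test was made, since a single group was described. Where a symbol was listed more than once, the row of highest median level was used. For the text, the rule took the 25 highest genes, the 15 highest transcription factors, secreted protein genes and receptors, up to 6 highest members and all members at 0 of every other list, the 12 highest and 12 lowest control 3 ratios at 10 CPM or more, up to 4 members of each list past 2-fold, the given markers and Rbpms. ETS and Hox genes, the ligand and receptor pairs and the other genes beyond this rule were chosen after their values were seen. The choice to describe these members, and the gene lists, were made with earlier results of these data known. Alternatives were TMM (edgeR 4.0.16), DESeq2 1.42.0 size factors, a TPM form, CPM without mitochondrially encoded genes, other minimum levels, the mean, other fold rules and leaving out each library. Tables were computed in Python 3.11.15 with pandas 2.3.3. Sequences and their starts are from RefSeq, GRCm38.p6.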

Additional observations from a re-analysis of the deposited data

How the results depend on the processing

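The number of detected genes stayed within 1.5 times of 11197 under every alternative run, from 8958 with a minimum of 10 CPM to 14985 with no minimum, and from 11195 to 11234 when 1 library was left out. The 267 genes higher in control 3 became 15 in the TPM form, 948 with no minimum level and 2 at over 3-fold, and the 796 lower genes became 1879, 1291 and 206. Without control 1 or control 2, so with 1 library to compare against, 422 to 446 were higher and 869 to 967 lower. The share held by the 100 most abundant genes, 18.5%, was 16.9% without mitochondrially encoded genes, 27.7% in the TPM form, and 18.7% to 18.97% when 1 library was left out. Here detection was read on each scale anew. The TPM form moved the log2 ratios of all lists by nearly the same amount, the median over detected genes going from -0.02 to -0.40; minimum levels and fold rules change which genes count, and the cause of the other shifts was not tested.

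Of 44 levels (5 markers, Fn1 and 38 summed lists), 2 moved by over 1.5 times when a library was left out, both without control 1: Fn1 from a median of 423 to 272 CPM and the summed ribosomal proteins from 32966 to 49778 CPM. No level moved so far without control 2 or 3, with the mean, or with TMM or DESeq2 factors. Without control 2 the ribosomal sum was 49263 CPM and Fn1 300 CPM. Leaving out control 1 or control 2 thus moved both the same way, and only the cut-off separates them. With 3 libraries, the mean and the leave-out medians cannot leave their range. The TPM form was not run for them because its unit differs, nor were the minimum levels, which leave them as they are. No paired analysis was possible because a single group was described and no test was made. A count of 0 limits a level only to 0.130 to 0.190 CPM per library.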

Other observations

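RNA outside the protein-coding class was a small part of the libraries. Processed pseudogenes held 0.798%, 0.774% and 1.30% of the total count in controls 1, 2 and 3, with 500 of 9497 listed at a median of 1 CPM or more, and Gm8730 was highest at 813, 850 and 1502 CPM. Intergenic long non-coding RNAs held 0.337%, 0.308% and 0.279%, with 232 of 5559 detected. Malat1, a nuclear speckle RNA, had 863, 682 and 330 CPM, and Neat1, the scaffold of paraspeckles, had 405, 363 and 381 CPM. Peg13, an imprinted transcript read from within another gene, had 614, 640 and 324 CPM. The imprinted H19 held 1, 4 and 5 counts, and Meg3 had 0 in all 3. These RNAs were chosen after their values were seen.

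The Y-linked genes Ddx3y, Eif2s3y, Kdm5d and Uty were all detected, with 35.6, 31.2 and 37.6 CPM for Ddx3y and 13.6, 11.9 and 17.8 CPM for Eif2s3y. Xist, the RNA that coats the inactive X chromosome, held 5, 0 and 0 counts. The 3 libraries were alike in this respect.

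The mitochondrially encoded messages were unequal. While mt-Co1 had 13399, 13367 and 12435 CPM, mt-Co2 had 82.6, 59.6 and 125 CPM, mt-Co3 had 30.9, 23.7 and 44.4 CPM and mt-Atp6 had 82.5, 35.0 and 44.6 CPM. Near-identical nuclear copies of these genes are annotated in the mouse genome, so their counts are uncertain. Retained ribosomal RNA differed too: CT010467.1, annotated as a ribosomal RNA gene, had 402, 814 and 999.8 CPM, and mt-Rnr1 had 309, 335 and 638 CPM, both highest in control 3.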
